A study of Mus musculus with 8 samples.

Results

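What an anti-PD-1 antibody added to the EP4 antagonist TP-16 was read from CT26 tumors by setting the 2 arrays of the combination against the 2 arrays of TP-16 alone, 4 of the 8 arrays of the series. Of the 56605 non-control probes of the array design 56567 entered, 38 having been left out for spots marked as outliers, and 31912 probes for 21616 genes had enough signal to be tested. The CT26 line came from a BALB/c mouse colon carcinoma, and 500000 cells were implanted under the skin of each host. Both groups received TP-16 (named BY001 in the labels) by mouth every day at 75 mg/kg for 2 weeks, and the combination group also received 50 µg of antibody per mouse into the peritoneum on a twice-weekly schedule. The other groups, used here only for side-by-side values, received vehicle or the antibody without TP-16. The study describes BALB/c hosts for subcutaneous CT26 tumors under this treatment schedule, while the methods list young female mice of several strains under 1 age range and do not give the age of the mice behind the arrays. The methods name the antibody clone as RMP1-14 and also a rat isotype control antibody, but neither they nor the labels say whether the vehicle and TP-16 groups of the array experiment received it. Whole tumor tissue was used, so each sample holds RNA of cancer cells, immune cells, stroma and any adjoining tissue, and fewer cells of a type and less RNA per cell cannot be told apart. The labels do not say whether a sample was 1 tumor or a pool. All arrays lay on 1 slide, where the antibody-treated groups filled row 2 and the groups without antibody row 1, so that slide row and antibody cannot be told apart in the comparison of the combination with TP-16 or of anti-PD-1 with vehicle.

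PD-1 is an inhibitory receptor that T cells display after activation, and its ligands PD-L1 and PD-L2 are made by tumor, myeloid and stromal cells, often under the influence of interferon gamma. Blocking PD-1 releases T cells that already recognise the tumor, and killing then proceeds through perforin, which opens target membranes, and granzymes, the serine proteases that enter with it. Prostaglandin E2 acts on the same tissue through EP4, a receptor coupled to cAMP production, and blunts T cells while favouring suppressive myeloid cells. TP-16 blocks that receptor.

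Among the largest differences was a family of neighbouring granzymes, so the sequences that measured them are shown first. The genes Gzmb, Gzmc, Gzmf, Gzmn, Gzmg, Gzmd and Gzme lie in 1 cluster on the minus strand of chromosome 14. Each was measured by 1 probe of 60 bases, and probe positions follow the mm9 coordinates in the array files. Probes of 4 members, each readable through in at least 1 frame without a stop codon, are given with the longest stretch that recurs in another probe of the family in capitals. The Gzmf probe lies at chr14:56824785-56824844, the Gzmn probe at chr14:56784795-56784854, the Gzmg probe between chr14:56776297 and 56776573, a span longer than the probe itself, and the Gzmd probe at chr14:56750116-56750175.
Gzmf: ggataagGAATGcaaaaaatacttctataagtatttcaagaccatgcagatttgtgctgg
Gzmn: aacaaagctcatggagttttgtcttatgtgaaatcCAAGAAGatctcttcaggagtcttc
Gzmg: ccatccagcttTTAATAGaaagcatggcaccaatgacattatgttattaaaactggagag
Gzmd: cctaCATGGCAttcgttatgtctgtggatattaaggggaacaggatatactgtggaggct
Over all 21 pairs of the 7 probes, the best ungapped alignment matched between 19 and 27 of 60 bases. Whether a probe also binds the transcript of another member was not tested, and the members are close relatives, so their values are not fully separate measurements.

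The promoters of 5 members share a stretch that is shown because all 5 were called higher. Windows of 60 bases from the RefSeq promoters (GRCm38.p6, minus strand) were aligned to the one around the palindrome TGACGTCA, the letters of a cAMP response element, in the Gzmf promoter. The windows lie at chr14:56234681-56234740 (Gzmc), chr14:56211456-56211515 (Gzmf), chr14:56159623-56159682 (Gzmg), chr14:56132621-56132680 (Gzmd) and chr14:56120654-56120713 (Gzme), and capitals mark the 8 aligned bases.
Gzmc: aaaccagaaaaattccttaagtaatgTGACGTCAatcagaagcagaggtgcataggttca
Gzmf: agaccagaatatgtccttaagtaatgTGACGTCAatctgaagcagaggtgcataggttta
Gzmg: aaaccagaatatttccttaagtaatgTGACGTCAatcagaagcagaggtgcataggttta
Gzmd: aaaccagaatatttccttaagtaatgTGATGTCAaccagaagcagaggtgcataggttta
Gzme: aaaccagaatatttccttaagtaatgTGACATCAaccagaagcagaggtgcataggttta
Of the 60 bases in the Gzmf window, Gzmg matched 57, Gzmd and Gzme 55 each and Gzmc 54. The full palindrome stood in Gzmc, Gzmf and Gzmg, while Gzmd carried C4T and Gzme G5A, counted from 1 at the 5′ end of the palindrome. The best windows of Gzmb and Gzmn matched only 26 and 25 bases, although both genes were called higher too. The palindrome was found, on either strand, in 3.2% of the 12776 tested genes with a RefSeq promoter window of 300 bases, which runs from 250 bases before to 50 after the gene start. A match describes the letters and says nothing of the factor that may bind them.

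With the thresholds of the methods, a 2-fold change and a limma p of 0.05 before adjustment, 1124 probes were higher (3.52% of those tested) and 262 were lower (0.821%) in the combination than in TP-16. These are the calls meant below. With 1 probe per gene, 860 genes were called higher (3.98%) and 192 lower (0.888%), and the median log2 difference of all tested genes was -0.09. After Benjamini-Hochberg adjustment 0 probes (0.0%) passed in limma, where the smallest adjusted p was 0.0839, while 7131 probes of any fold had a limma p within 0.05 before adjustment. The methods' t-test also gave 0 after adjustment, while a trended and robust estimate of the spread gave 215 and normexp background correction 147. The methods' t-test called 31 of the 51 called genes named below whose values were followed through every setting, normexp 37, and the fit without combination replicate 2 also 37. The calls are therefore a description of 2 against 2 arrays, with no error rate controlled over the genes. Without combination replicate 2 the total fell from 1386 to 745 probes, without TP-16 replicate 2 to 887, and without TP-16 replicate 1 it was 2027. Combination replicate 2 was also the brightest array, with a 75th percentile of intensity of 733.6 against 607.1 on combination replicate 1 and 530.2 and 550.8 on the TP-16 arrays. Levels below are log2 intensities minus that percentile of the array. Among the genes tested, 23% had both combination arrays higher than both TP-16 arrays and 38.0% had both lower, so separation of the 4 values alone is common here.

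Several cytotoxic genes were called higher when the antibody was added. Of 18 tested members of the list (granzymes, perforin and partners), 8 were called higher and 0 lower, with a median log2 difference of 1.2, and in 16 both combination arrays lay above both TP-16 arrays. The 8 were Gzmb, Gzmc, Gzmd, Gzme, Gzmf, Gzmg, Gzmn and Prf1. Gzmg had levels of -0.75 and -1.09 on the TP-16 arrays and 3.02 and 2.66 on the combination arrays. The groups did not overlap, and the difference of 13.5-fold (log2 3.75 ± 0.54 SE, adjusted p = 0.103) was the largest among the members above background in both groups. Gzmd read -1.30 and -1.37 against 2.36 and 1.98, which is 11.4-fold (adjusted p = 0.0872). Gzmf read -0.11 and -0.19 against 3.32 and 2.98, 9.87-fold higher. Gzme read 1.90 and 1.95 against 5.31 and 4.91, 9.1-fold higher. All of these kept their call in each of the 8 fits that left out 1 array. Gzmc differed less within the same pattern, with 1.95 and 2.23 under TP-16 and 4.49 and 4.11 under the combination (4.64-fold). Gzmn was above background on both combination arrays and on neither TP-16 array, and set against the dimmest level called well above background on each TP-16 array it was at least 1.25-fold higher (adjusted p = 0.103).

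Gzmb, the granzyme best known from CD8+ T cells and NK cells, followed with 2.93 and 2.94 on the TP-16 arrays and 4.37 and 4.78 on the combination arrays, 3.12-fold higher (adjusted p = 0.15). Perforin (Prf1) read 0.94 and 0.61 against 2.07 and 2.20, 2.57-fold higher. Neither gene overlapped between the groups, but Gzmb lost its call without TP-16 replicate 1, TP-16 replicate 2 or combination replicate 2, and Prf1 without TP-16 replicate 2 or either combination array. Other members did not pass. Gzma, the granzyme of many resting killer cells, had levels of 5.13 and 5.15 against 5.25 and 5.09, which overlap, with a log2 difference of 0.03 ± 0.66. Gzmk read -0.49 and -1.88 against 0.00 and 1.16 (log2 1.77 ± 0.79). Fasl, the death ligand of T cells, read -0.33 and -0.95 against 0.10 and 0.70 (log2 1.04 ± 0.61), and the granule membrane gene Lamp1 differed by -0.04 ± 0.11, which became 0.305 after quantile normalization and 0.307 in the authors' log2 values, with no call under either.

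**Figure D1:**
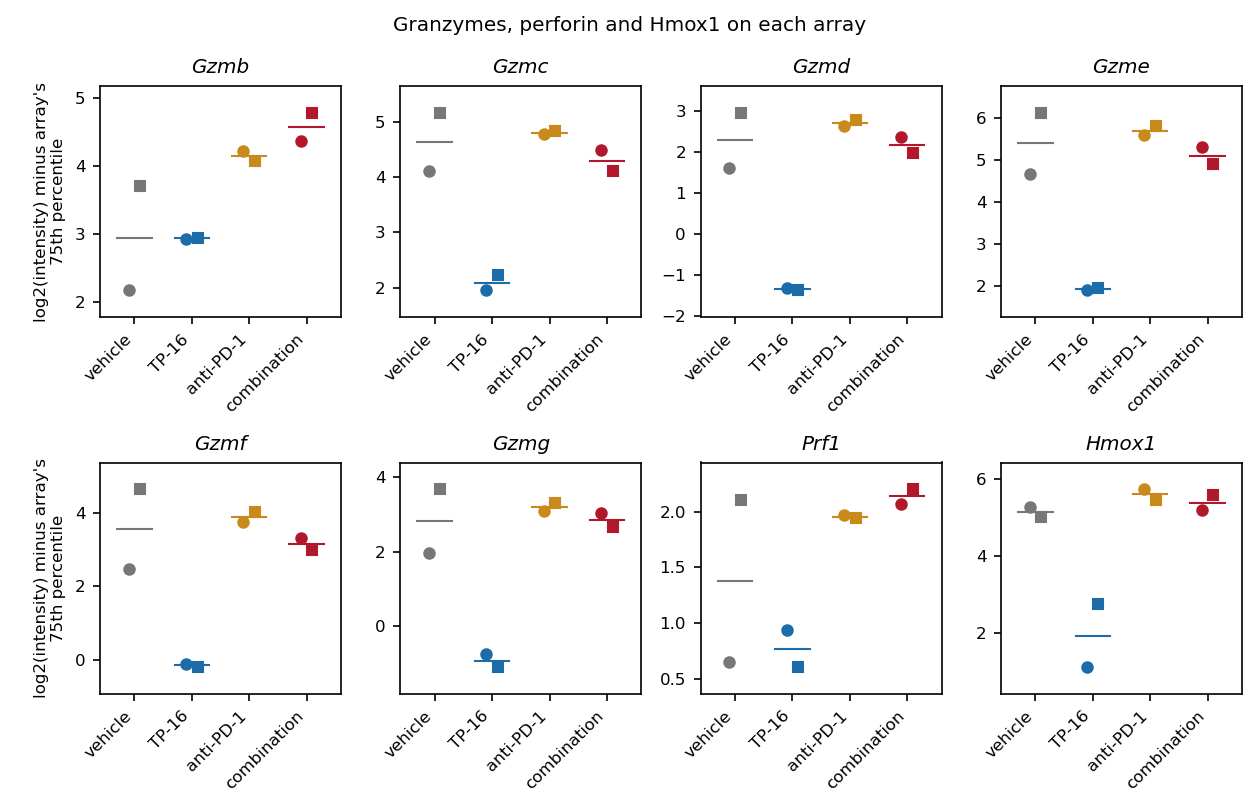
Levels (log2 intensity less that array's 75th percentile, y axis, with its own range in each panel) of 6 granzymes, perforin and Hmox1 in the 4 groups (x axis), with circles for replicate 1, squares for replicate 2 and lines for group means. For Gzmc to Gzmg and Hmox1 the TP-16 arrays lie below all 6 other arrays, and the combination arrays lie in or near the range of the vehicle and anti-PD-1 arrays.

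The other arrays place these differences. For Gzmc, Gzmd, Gzme, Gzmf and Gzmg the TP-16 arrays were the lowest of the series, and the combination arrays fell among the vehicle and anti-PD-1 arrays. Gzmg read 1.95 and 3.67 in vehicle and 3.08 and 3.29 in anti-PD-1, and Gzme 4.67 and 6.13 in vehicle and 5.59 and 5.81 in anti-PD-1. The antibody without TP-16 changed neither gene past the threshold, with log2 differences from vehicle of 0.37 for Gzmg and 0.31 for Gzme. Gzmb was different in this respect, since the combination arrays exceeded all 6 other arrays. The departure from additivity, that is the difference made by the antibody with TP-16 minus the difference it made without, was 3.38 on the log2 scale for Gzmg (adjusted p = 0.472) and 3.10 for Gzmd (adjusted p = 0.412) and did not pass for either.

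Hmox1, which encodes heme oxygenase 1, an enzyme of heme breakdown made by stressed cells and macrophages, had the same order of groups. It read 1.11 and 2.74 under TP-16, 5.20 and 5.58 under the combination, 5.27 and 5.02 in vehicle and 5.74 and 5.47 in anti-PD-1. The combination was 11-fold above TP-16 (log2 3.46 ± 0.51, adjusted p = 0.103). The TP-16 arrays lay apart from each other, and the log2 difference was 2.65 without TP-16 replicate 1 and 4.28 without TP-16 replicate 2.

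T-cell genes differed mostly by less than the threshold. All 20 tested genes of the T-cell receptor complex and coreceptors had a difference above 0, with a median of 0.86, in 19 of them both combination arrays lay above both TP-16 arrays, and 3 were called (Cd2, Lcp2 and Thy1), which is 15% beside 3.98% of all tested genes. The calls of Lcp2 and Thy1 were lost without TP-16 replicate 2 or combination replicate 2, and that of Cd2 without any 1 TP-16 or anti-PD-1 array or combination replicate 2. Lcp2, the SLP-76 adaptor of receptor signaling, read 1.71 and 1.40 against 2.29 and 2.89 (2.05-fold). Cd3e, an invariant chain of the receptor, read 2.08 and 1.84 against 2.24 and 2.89 (log2 0.61 ± 0.43), and Cd8a, the coreceptor of killer T cells, 0.12 and -0.74 against 0.21 and 0.86 (log2 0.84 ± 1.1). The SE of Cd8a is wide because the spread is shared by all 4 groups and the vehicle arrays lay at -5.02 and -1.43. Foxp3, the factor of regulatory T cells, read -3.04 and -2.60 against -2.49 and -2.17 (log2 0.49 ± 0.26) and was not called. Of 19 lineage transcription factors 0 were called in either direction, with a median of 0.78, a count that the 3.98% over all genes does not set apart.

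Among T-cell activation and costimulation genes 5 of 20 were called higher and 0 lower (Il2ra, Cd28, Cd70, Tnfsf4 and Slamf1), which is 25.0% beside 3.98% of all tested genes. Tnfsf4, the OX40 ligand, read -4.46 and -4.24 under TP-16 and -2.94 and -2.64 under the combination, 2.96-fold higher, and kept its call whichever array was left out. Il2ra, the CD25 chain of the interleukin 2 receptor, read -1.88 and -1.82 against -0.92 and -0.60 (2.13-fold). Its call was lost without any 1 of the 6 treated arrays. Cd69, an early activation marker, read -2.05 and -2.22 against -1.56 and -1.08, a 1.76-fold difference below the threshold. Of 10 common gamma chain cytokines and receptors 3 were called higher (30.0%) and 0 lower (Il7r, Il21r and Il2ra). Il7r, the interleukin 7 receptor, read 0.74 and 0.42 against 1.73 and 2.57 (2.97-fold). Of 17 NK cell receptors 1 was called, the inhibitory receptor Klrc1, at -4.16 and -4.20 against -2.82 and -2.01 (3.4-fold, lost without combination replicate 2). That count is 5.88%, near the share of all tested genes, and does not set the list apart.

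The ligands of the blocked receptor were among the genes called higher. Of 18 tested checkpoint genes 6 were called higher and 0 lower (Cd274, Pdcd1lg2, Havcr2, Cd200, Vsir and Entpd1), with a median of 0.96. The 6 are 33.3% of the list, beside 3.98% of all tested genes. Cd274, which encodes PD-L1, read 2.70 and 2.21 under TP-16 and 3.52 and 3.97 under the combination, 2.45-fold higher (adjusted p = 0.171). Pdcd1lg2, which encodes PD-L2, read -0.53 and -0.29 against 0.57 and 1.33, 2.57-fold higher (adjusted p = 0.134). Both combination arrays lay above both TP-16 arrays for each. Pdcd1 itself read 1.77 and 1.5 against 1.94 and 2.67, with a log2 difference of 0.67 ± 0.55 that was not called. Havcr2, which encodes the exhaustion receptor TIM-3, read 1.01 and 0.78 against 1.84 and 2.45 (2.37-fold). The checkpoint count rested on single arrays, with 0 called without combination replicate 2, 1 without TP-16 replicate 2 and 9 without either vehicle array.

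Interferon genes passed the threshold about as seldom as the 3.98% of all tested genes called higher, so the counts of calls in this paragraph say nothing particular to them. Ifng had levels of 0.75 and 0.00 under TP-16 and 1.67 and 2.38 under the combination, which do not overlap, but the difference of 3.13-fold had an SE of 0.96 on the log2 scale and was not called (adjusted p = 0.366). In vehicle its arrays read -3.58 and -0.49. For the GTPases that interferon gamma induces, all 18 tested genes had both combination arrays above both TP-16 arrays with a median of 0.93, and 1 was called, Gbp10 (2.22-fold). Irf1, a transcription factor of the interferon response, read 5.53 and 5.14 against 5.93 and 6.20 (log2 0.72 ± 0.39). MHC class II genes with their activator Ciita had a median of 0.59 and 0 calls among 13. Of 24 genes of MHC class I and peptide loading 2 were called, the peptide transporter subunit Tap2 (2.31-fold) and H2-T24, and of 33 antiviral genes 0 were called, with a median of 0.34.

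Chemokines were called in both directions. Of 32 tested chemokines 6 were called higher (Ccl3, Ccl4, Ccl5, Ccl11, Ccl24 and Cxcl12) and 2 lower (Cxcl1 and Ccl12). That is 18.8% and 6.25%, beside 3.98% and 0.888% of all tested genes. Ccl5, which draws T cells, read 4.76 and 3.99 under TP-16 and 5.83 and 6.55 under the combination, 3.53-fold higher (adjusted p = 0.128). Ccl3 read 1.83 and 1.27 against 2.99 and 3.70, 3.46-fold higher. Both calls held in each fit that left out 1 array, whereas the call of Ccl4 (2.7-fold) was lost without combination replicate 2. The ligands of CXCR3 that interferon gamma induces did not pass, with Cxcl9 at 4.87 and 4.56 against 5.68 and 5.68 (log2 0.97 ± 0.95) and Cxcl10 at 4.75 and 4.19 against 5.16 and 5.28 (log2 0.76 ± 0.34). The receptor Cxcr3 was called at 2.15-fold, lost without TP-16 replicate 2 or combination replicate 2. Cxcl1, which draws neutrophils, was lower at 1.62 and 0.81 under the combination against 2.51 and 2.65 under TP-16, a fold of 2.58 that was lost without combination replicate 2.

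Nos2 and Tnf, products of inflammatory macrophages, were the 2 of 16 inflammatory genes called, both higher (12.5%, beside 3.98% of all tested genes). The median of the 16 was 0.06, and 9 of them had a difference above 0. Nos2 read 1.34 and 1.05 under TP-16 and 2.80 and 3.28 under the combination, 3.6-fold higher (log2 1.85 ± 0.21, adjusted p = 0.0841). Tnf read -0.95 and -1.76 against -0.26 and 0.44, 2.72-fold higher, and its call was lost without TP-16 replicate 2 or combination replicate 2. Some genes of alternative activation were called higher as well. Retnla, a secreted product of macrophages under interleukin 4, read 2.53 and 3.38 against 5.30 and 5.69 (5.8-fold, adjusted p = 0.103). Arg1, arginase 1, read 2.54 and 3.41 against 4.12 and 4.28 (2.34-fold, lost without TP-16 replicate 1). In all, 5 of 18 such genes were called higher and 0 lower (Arg1, Retnla, Clec10a, Il10 and Ccl24), while Mrc1, which encodes the mannose receptor, differed by 0.17 ± 0.28. The 5 are 27.8% of their list.

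Of 20 macrophage markers 4 were called higher and 0 lower (Adgre1, Mertk, Cybb and Apoe), with a median of 0.71. The share called higher was 20.0%, beside 3.98% of all tested genes. Adgre1, a surface receptor that marks mouse macrophages, read 3.90 and 3.33 under TP-16 and 4.40 and 5.22 under the combination (2.28-fold, lost without TP-16 replicate 2 or combination replicate 2). The summed level of the macrophage list, on the log2 scale, was 10.01 and 9.92 under TP-16 and 10.38 and 10.54 under the combination. For the alternative activation list it was nearly flat, at 8.6 and 8.64 against 8.69 and 8.65. The part of the macrophage markers in the results for macrophage products above was not tested. Neutrophil markers had no shared direction. Of 17, Camp and Fpr1 were called higher and S100a9 and Lcn2 lower. S100a9, a subunit of calprotectin, read 4.90 and 5.11 against 4.08 and 3.82, a fold of 2.08 lower that was lost without TP-16 replicate 2 or combination replicate 2, and its partner S100a8 read 3.17 and 3.47 against 2.53 and 2.48, a fold of 1.76 lower that was not called.

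**Figure D2:**
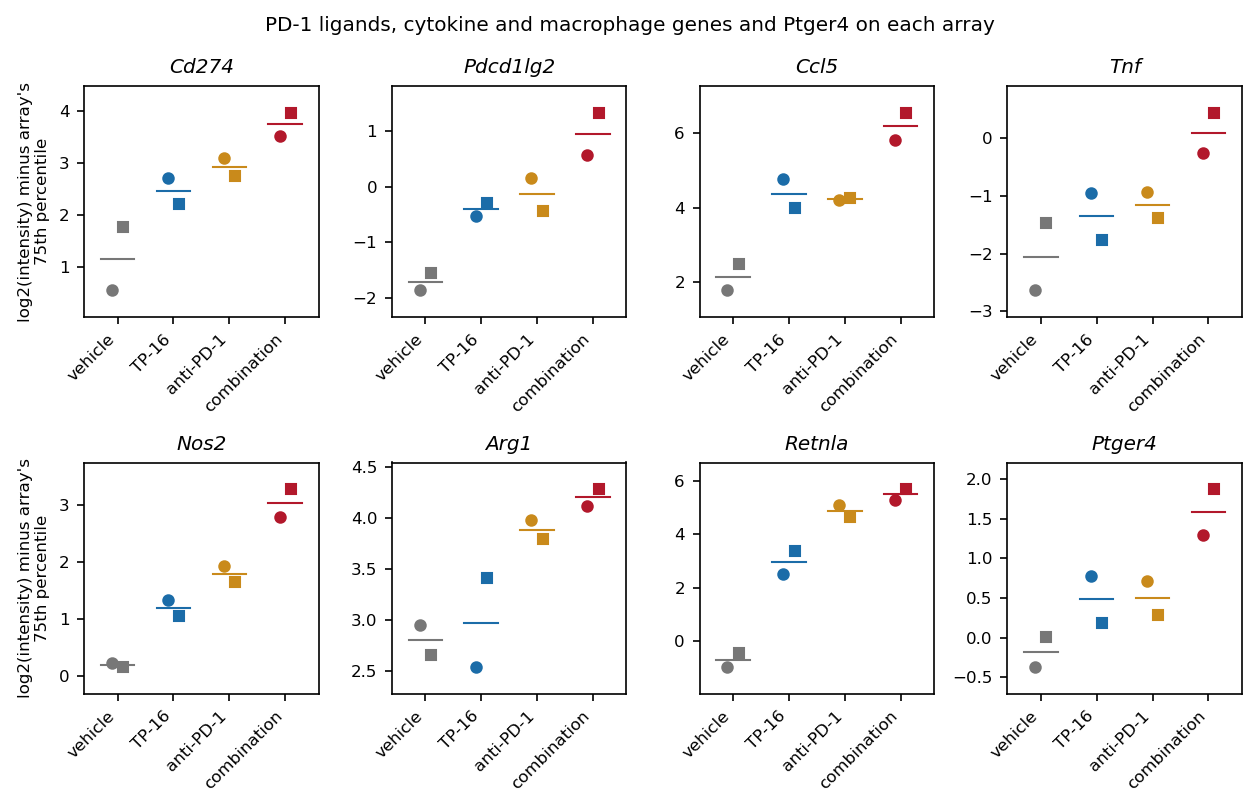
Levels (log2 intensity less that array's 75th percentile, y axis, with its own range in each panel) of 8 immune genes in the 4 groups (x axis), with circles for replicate 1, squares for replicate 2 and lines for group means. For each of the 8 genes both combination arrays lie above both TP-16 arrays, and they exceed all 6 other arrays in every panel.

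The receptor that TP-16 blocks was itself called. Ptger4, which encodes EP4, read 0.78 and 0.19 under TP-16 and 1.29 and 1.87 under the combination, 2.14-fold higher (adjusted p = 0.145), with -0.37 and 0.01 in vehicle. The call was lost without TP-16 replicate 2 or combination replicate 2. Ptger2, which encodes EP2, the other prostaglandin E2 receptor coupled to cAMP, read -1.91 and -2.04 against -0.91 and -0.35, 2.54-fold higher, and kept its call in each fit with 1 array left out. Hpgd, which inactivates prostaglandins, was also higher, at -3.05 and -2.75 against -1.36 and -0.91 (3.4-fold). The enzymes that make prostaglandin E2 were not called, with Ptgs2 (COX-2) at 2.50 and 2.28 against 2.68 and 2.51 and Ptges at 5.67 and 5.78 against 5.56 and 5.34. In the list of 20 prostaglandin receptors and enzymes 4 were called higher (20.0%) and 1 lower (5.0%), the prostaglandin D2 synthase Ptgds. Among 26 genes of the early cAMP and CREB response 0 were called higher and 1 lower (3.85%), the growth factor Areg, and the median was 0.01. Over all tested genes 3.98% were called higher and 0.888% lower, and counts as small as those of the cAMP list do not set it apart.

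Of 22 tested collagens 10 were called higher and 1 lower (Col10a1, above background on only 1 of the 4 arrays), with a median of 1.12. Of 20 fibroblast markers 8 were called higher and 0 lower. The shares called higher were 45.5% and 40.0%, beside 3.98% of all tested genes. The summed level of the collagens was 8.61 and 8.32 under TP-16 and 9.05 and 9.14 under the combination, whereas that of the fibroblast markers was 10.13 and 10.04 against 10.11 and 9.98 and overlapped. Col6a3, a chain of microfibrillar collagen VI, read 1.94 and 1.28 under TP-16 and 3.34 and 3.97 under the combination, 4.12-fold higher (adjusted p = 0.11). Col1a1, the main chain of fibrillar collagen I, read 5.04 and 4.17 against 6.18 and 6.49, 3.32-fold higher (adjusted p = 0.127). The partner chain Col1a2 read 7.51 and 7.28 against 7.78 and 7.77, only 1.3-fold higher and not called. Fap, a protease of activated fibroblasts, read 0.18 and -1.02 against 1.14 and 1.87 (3.79-fold), and Postn, a matrix protein of remodelling tissue, 1.76 and 1.17 against 3.11 and 3.50 (3.57-fold). None of these overlapped between the groups, and TP-16 replicate 2 was the lowest and combination replicate 2 the highest of the 4 arrays for Col6a3, Col1a1, Fap and Postn. The log2 difference of Fap was 1.32 without TP-16 replicate 2. Without TP-16 replicate 2 or without combination replicate 2, 5 fibroblast markers were called. By the methods' t-test 4 collagens and 2 fibroblast markers were called. Acta2, smooth muscle actin, had overlapping levels of 5.33 and 5.11 against 5.08 and 5.39.

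Of 20 endothelial markers 4 were called higher (20.0%, beside 3.98% of all tested genes) and 0 lower, with a median of 0.83. Tek, the TIE2 receptor of endothelium, read -3.75 and -4.60 under TP-16 and -2.49 and -1.89 under the combination (3.95-fold). Cdh5, the cadherin of endothelial junctions, read 1.24 and 0.61 against 1.53 and 2.02, and Pecam1 -1.36 and -1.92 against -1.1 and -0.56, and neither was called. For the antibody without TP-16 against vehicle, 1.89% of all tested genes were called higher, and 0 of 22 collagens, 0 of 20 fibroblast markers and 0 of 20 endothelial markers were, counts near that share, with medians of 0.14, 0.30 and -0.19. For Col6a3 the departure from additivity was 1.81 (adjusted p = 0.53), so the difference between the antibody with and without TP-16 did not pass the test.

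**Figure D3:**
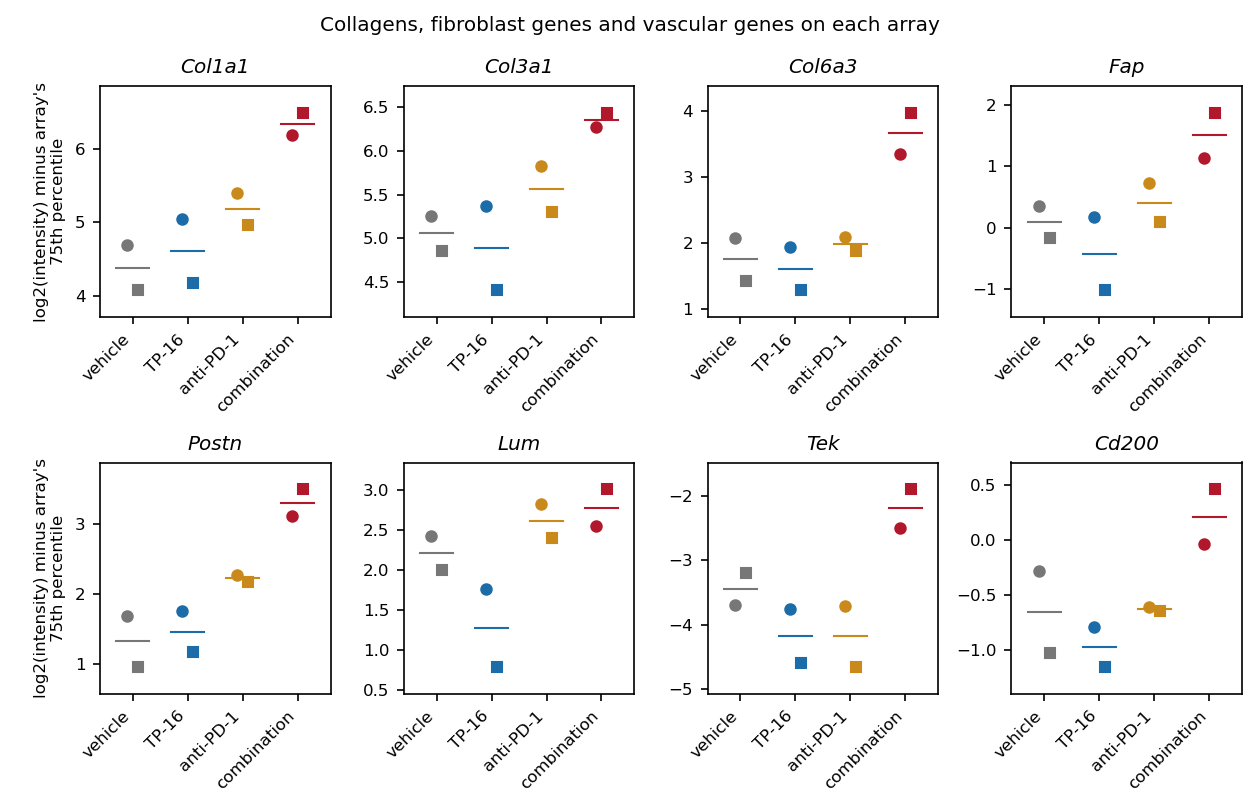
Levels (log2 intensity less that array's 75th percentile, y axis, with its own range in each panel) of collagens, fibroblast genes, Tek and Cd200 in the 4 groups (x axis), with circles for replicate 1, squares for replicate 2 and lines for group means. In all 8 panels both combination arrays lie above both TP-16 arrays, and for all but Lum they are the highest of the series.

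Outside these families, Myh3, an embryonic muscle myosin, led the 15 largest rises among genes well above background on the 4 arrays. It read -3.15 and -4.57 under TP-16 and -0.62 and 0.53 under the combination (14.1-fold, adjusted p = 0.155), and the call was lost without TP-16 replicate 2 or combination replicate 2. The arrays lay apart within both groups, so the size and the leading place of this rise leaned on those replicates. Mymx, which drives fusion of muscle precursor cells, was not above background under TP-16 and was at least 4.16-fold higher under the combination. Genes of mature skeletal muscle as a list did not move with them, with a median of -0.04 and summed levels of 6.87 and 6.90 against 6.79 and 6.76. Of these 24 genes 0 were called, a count near the shares of all tested genes (3.98% higher and 0.888% lower). A pair of imprinted growth-restraining genes was called, with the zinc finger factor Plagl1 at -1.41 and -3.20 against 0.31 and 1.35 (8.77-fold) and the cyclin kinase inhibitor Cdkn1c at -0.86 and -1.86 against 0.71 and 1.62 (5.74-fold). For Plagl1 the other probe differed by only 0.47 on the log2 scale, and the difference of 3.13 became 2.24 without TP-16 replicate 2 and 4.03 without TP-16 replicate 1. The remaining genes among the 15 largest were Abi3 (6.78-fold), the secreted trefoil peptide Tff1 (6.58-fold), the secreted lectin Reg1 (5.91-fold), the growth factor Ptn (5.54-fold), the glycosyltransferase Gxylt2 (5.44-fold) and the steroid-metabolising enzyme Akr1c14, which read -2.44 and 0.23 on the combination arrays and was 7.56-fold higher overall but 1.58 on the log2 scale without combination replicate 2. TP-16 replicate 2 also weighed on others, and without it the log2 difference went from 2.56 to 1.45 for Reg1, from 2.47 to 1.77 for Ptn and from 2.44 to 1.65 for Gxylt2, while the call of Reg1 was lost without combination replicate 1. Above background on both combination arrays and neither TP-16 array were also Col6a5 (at least 5.34-fold), the receptor gene Fcrl6 (at least 4.76-fold), which both other groups also expressed above background, 6030442E23Rik (at least 3.71-fold) and Nlrp5-ps (at least 3.47-fold). These dim genes are less firm. The call of 6030442E23Rik was lost with the replicate number as a block, with normexp background correction, with the methods' t-test and without any 1 of 5 arrays, among them both vehicle and both TP-16 arrays and combination replicate 1. The other 4 of these 5 genes lost theirs with normexp, Nlrp5-ps also with the t-test, Mymx also without combination replicate 2, and Col6a5 without either TP-16 array or combination replicate 2.

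Many structured noncoding RNAs were called lower in the combination. These are the RNAs that build or serve the ribosome, the spliceosome and RNA-processing enzymes, and they were grouped by their RefSeq biotype after their values were seen. Of 29 tested, 20 were called lower (69.0%) and 0 higher, and the median was -1.05. Over all tested genes 0.888% were called lower, as were 0.635% of 14793 protein-coding genes and 2.01% of 1142 long noncoding RNAs. In 27 of the 29 both combination arrays lay below both TP-16 arrays, beside 38.0% of all tested genes. By kind, 7 of 11 small nucleolar RNAs, 5 of 7 small nuclear RNAs and 3 of 4 RNase P RNAs were called. The probes of Rn28s1 and Rmrp, both among the largest differences, are shown, since they define which RNA was read, from chr13:97960526-97960585 (minus strand) and chr4:43505692-43505751 (minus strand) in the mm9 positions of the array annotation.
Rn28s1: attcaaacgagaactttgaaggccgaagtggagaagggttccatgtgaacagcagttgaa
Rmrp: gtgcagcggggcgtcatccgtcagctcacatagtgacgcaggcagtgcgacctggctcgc
Rn28s1, the large ribosomal RNA, read 7.08 and 6.72 under TP-16 and 5.18 and 5.29 under the combination, a fold of 3.17 lower (log2 -1.66 ± 0.18, adjusted p = 0.0839). Rn7s1, the RNA of the signal recognition particle, read 5.53 and 5.27 against 3.78 and 3.46, a fold of 3.44 lower. Rmrp, the RNA of RNase MRP, read 3.05 and 3.25 against 1.72 and 1.36, a fold of 3.05 lower. None overlapped, and these calls held whichever array was left out.

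**Figure D4:**
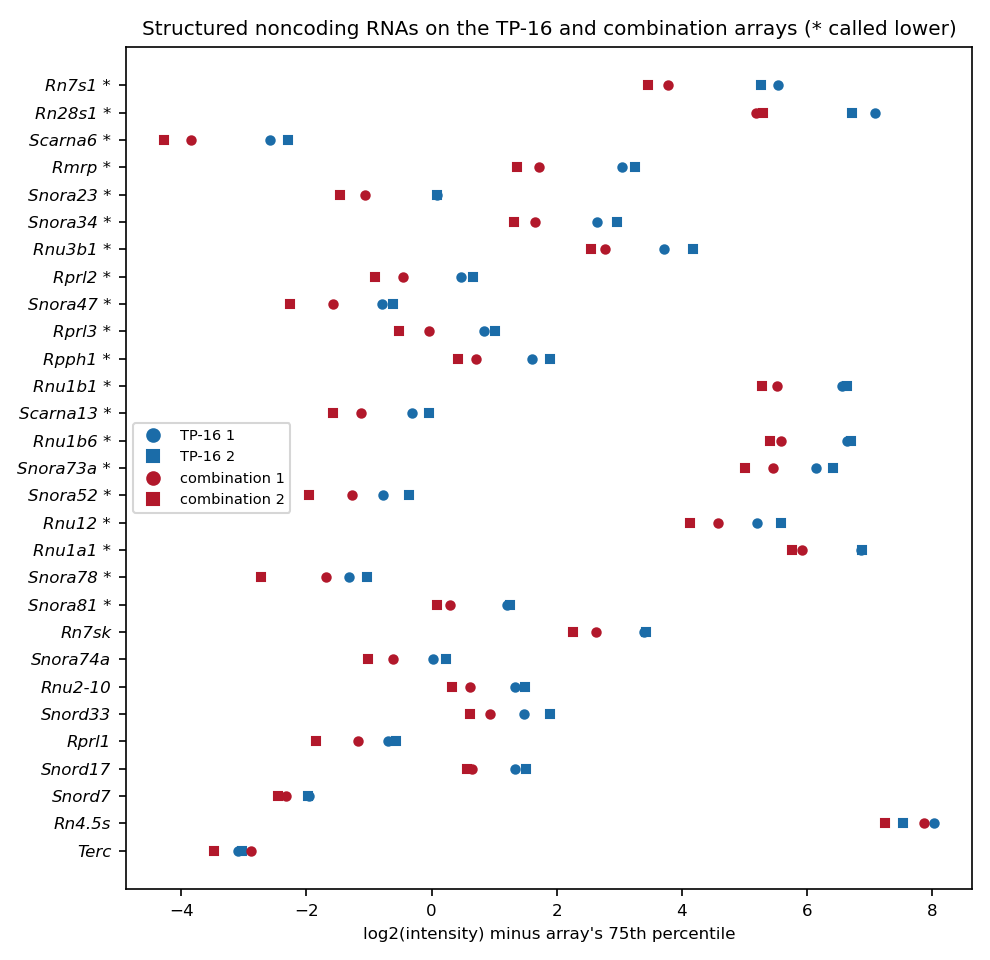
Levels (log2 intensity less that array's 75th percentile, x axis) of the 29 tested structured noncoding RNAs (y axis, ordered by difference) on the TP-16 arrays (blue) and combination arrays (red), with circles for replicate 1 and squares for replicate 2 and a star on the 20 called lower. In 27 of the 29 rows the red points lie to the left of the blue ones, and the exceptions are Terc and Rn4.5s at the bottom.

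The count for these RNAs was 11 without combination replicate 2 and 25 without combination replicate 1. Without any scaling between arrays, a setting added after the data had been seen that moved every difference by 0.30, their median was -0.75. Their summed level was 10.56 and 10.63 in vehicle, 10.15 and 10.13 in anti-PD-1, 9.84 and 9.74 in TP-16 and 9.08 and 8.69 in the combination. Over these groups the 75th percentile of intensity took the opposite order, starting at 371.1 and 378.1 in vehicle and 398.0 and 414.9 in anti-PD-1. Snora34, a small nucleolar RNA, had that order too, with 4.10 and 4.45, then 3.51 and 3.40, then 2.65 and 2.97, then 1.65 and 1.31. Rn28s1 did not, since it read 7.14 and 7.15 in vehicle and 6.99 and 6.62 in anti-PD-1, which overlaps TP-16. RNA quality values are not given in the sources used here, and the part of labelling yield or RNA composition in this result was not tested.

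Protein-coding genes stood beside these RNAs among the 15 largest falls. Car6, a secreted carbonic anhydrase, read 2.83 and 3.15 under TP-16 and 1.26 and 0.46 under the combination, a fold of 4.37 lower (adjusted p = 0.114). Rab5c, a GTPase of early endosomes, read 4.88 and 5.05 against 3.49 and 3.48, a fold of 2.79 lower (log2 -1.48 ± 0.13, adjusted p = 0.0839). Its levels were 2.96 and 3.16 in vehicle and 3.05 and 3.20 in anti-PD-1, so that TP-16 arrays stood above all 6 others, and Npm3, a nucleolar histone chaperone, had the same order with 2.60 and 2.73 under TP-16 and 1.15 and 0.97 under the combination (a fold of 3.04 lower). The aldose reductase relative Akr1b7 (a fold of 4.26), Prr7 (4.25), Cmtm4 (3.14), the milk protein gene Csn3 (2.9, with 3 probes between -2.55 and -0.18 on the log2 scale), the thyroid hormone activating deiodinase Dio2 (2.86) and the homeobox gene Hoxb9 (2.81) completed the annotated protein-coding genes among the 15 largest falls, beside the pheromone receptor gene Vmn1r139 (2.75). Of the 5 genes named as above background on both TP-16 arrays and neither combination array, 3 were of the Vmn1r family too (Vmn1r148, Vmn1r122 and Vmn1r131, at least 2.66-, 2.28- and 2.42-fold lower), and the others were Gm31063 (at least 2.97-fold) and Gm33318 (at least 2.23-fold), whose call was lost without any 1 array other than TP-16 replicate 2. The members of that receptor family resemble each other and may share signal.

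Cell division and housekeeping lists had small differences whose size depended on scaling. Of 32 cell division genes 0 were called and all had a difference below 0, with a median of -0.22 that became -0.10 after quantile normalization and 0.09 without scaling. Mki67, the proliferation marker, read 4.80 and 4.67 against 4.79 and 4.51. All 40 cytosolic ribosomal protein genes had both combination arrays below both TP-16 arrays, with a median of -0.43 under the 75th percentile, -0.06 after quantile normalization and -0.12 without scaling, and 0 were called. Mitochondrial respiratory chain genes had a median of -0.27, which became -0.07 and 0.03 under the same settings.

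Markers of other tissues that a subcutaneous tumor can carry were checked beside these results. The epithelial marker Epcam was above background on only 1 of the 8 arrays and was not tested, and 10 of 19 epithelial markers were tested, with 0 called. Of 20 skin and hair genes only 9 were tested, with a median of -1.17. Their summed level was 3.48 and 5.53 on the TP-16 arrays and 3.41 and 3.31 on the combination arrays, and Krt14, a keratin of basal epidermis, read -4.06 and 3.80 against -4.92 and -3.86, so the skin signal of TP-16 replicate 2 stood apart, as did that of anti-PD-1 replicate 2 (Krt14 at 4.22). Its part in the calls, several of which were lost without that array, was not tested. Red blood cell genes had summed levels of 7.76 and 7.53 against 7.15 and 7.48, and of 17 adipose genes 2 were called higher (Lpl and Pparg).

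**Figure D5:**
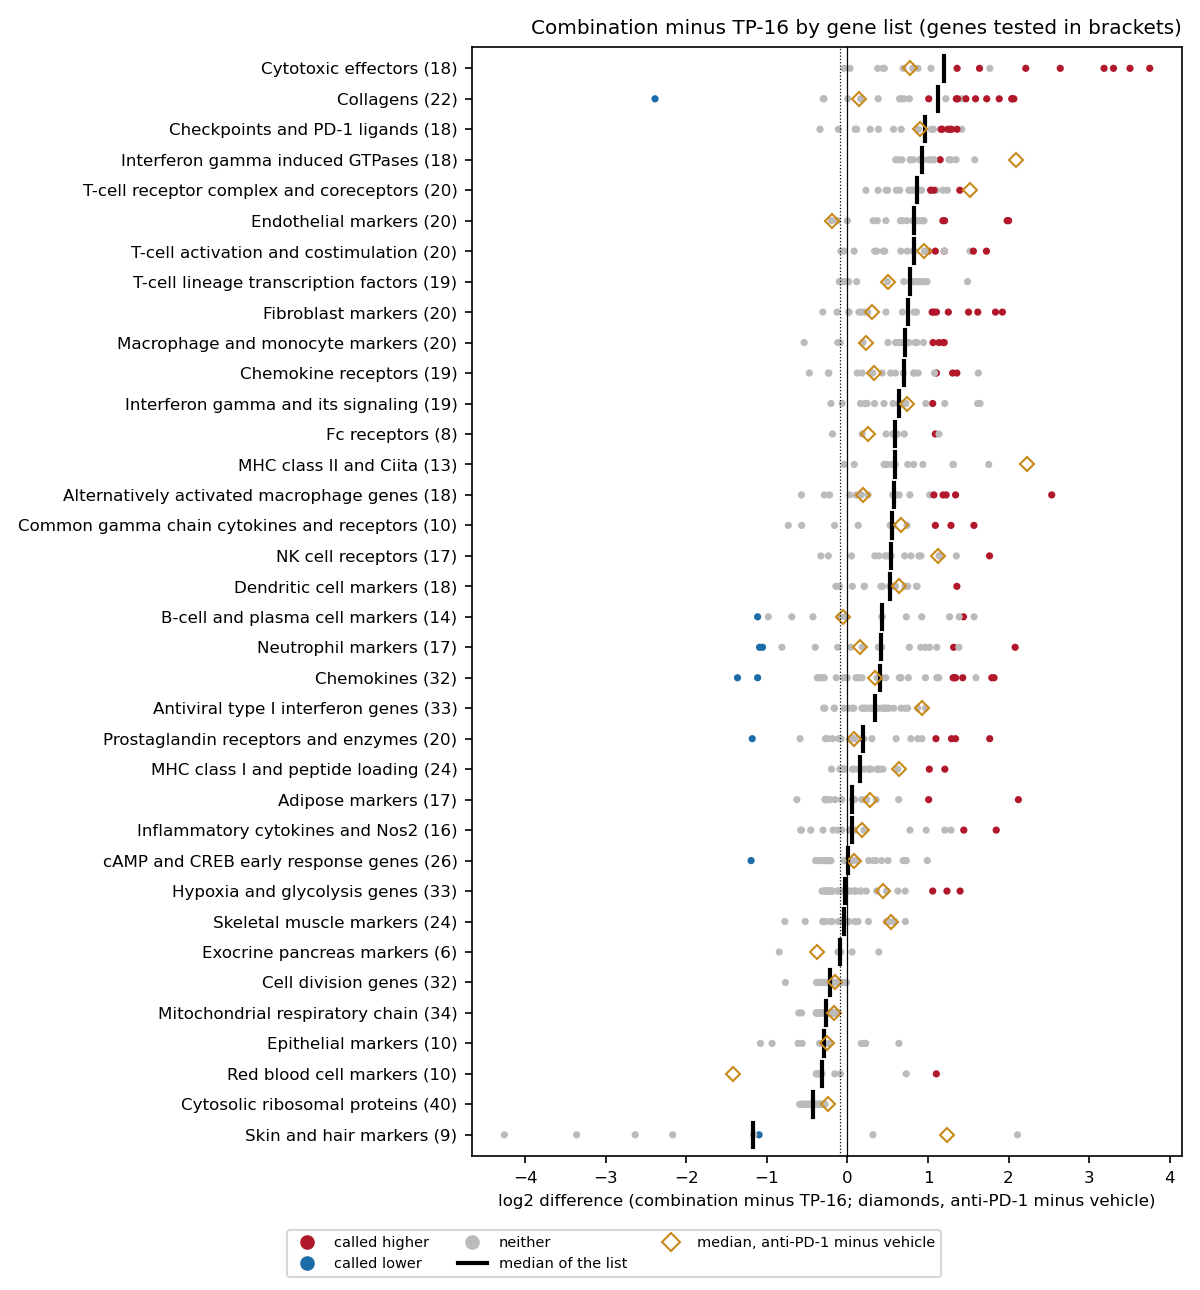
Log2 differences of the combination from TP-16 (x axis) for the tested genes of 36 lists (y axis, ordered by median), with red points called higher, blue points called lower, grey points neither, black bars for list medians and open diamonds for the list median of anti-PD-1 minus vehicle. The solid line marks 0 and the dotted line the median of all tested genes, -0.09. Cytotoxic effectors (1.2) and collagens (1.12) have the highest medians.

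The values of the same antibody without TP-16 stand here for comparison. Against vehicle 408 genes were called higher (1.89%) and 486 lower (2.25%), and the share of higher calls among probes was 43.6%, or 74.5% after quantile normalization, whereas for the combination against TP-16 it was 81.1% and 80.6%. The comparisons share no array, though they share 1 estimate of the spread and the slide rows. Over 21616 genes the log2 differences correlated at r = 0.39, a description across genes, which are not independent replicates. The GTPases induced by interferon gamma had a median of 2.09 without TP-16, with 18 of 18 called higher, and 0.93 with it. MHC class II genes had 2.23 without and 0.59 with TP-16, T-cell receptor genes 1.52 and 0.86, and checkpoints 0.90 and 0.96. Collagens had 0.14 and 1.12, and cytotoxic effectors 0.77 and 1.2. These pairs of medians were not tested against each other, and vehicle replicate 1 stood low for interferon genes (Cxcl9 at 0.89 against 4.11 on vehicle replicate 2). For single probes the departure from additivity was called for 0 in limma after adjustment, where 0.0704 was the lowest adjusted p. It was called for 14 after quantile normalization, and 2336 probes had a limma p within 0.05 before adjustment.

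Promoter letters were searched in the genes called. The sequence TTCNNNGAA of a gamma-activated site was found, on either strand, in 9.06% of 585 genes called higher and in 8.7% of all tested genes with a promoter. The core AANNGAAA bound by interferon regulatory factors was found in 24.6% and 22.7%. Of the 18 tested GTPases induced by interferon gamma only 10 had a promoter window, and of these 10 held the core and 5 the gamma-activated site. The core was also in 7 of 17 cytotoxic and 7 of 13 checkpoint genes with a window. The cAMP palindrome stood in 2.05% of genes called higher and in 3 of 17 cytotoxic genes, which are the 3 granzymes shown above. No pattern matched here says whether a site is used.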

How the data were processed

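Total RNA of 8 tumor samples was labelled with Cy3 and hybridised to Agilent SurePrint G3 arrays. The authors deposited scanner output with intensity values, background-subtracted and detrended by Agilent Feature Extraction 10.7.1.1, and a table of log2 values whose sorted columns agreed between arrays to 0.00115, which they normalized in GeneSpring. The methods name TRIzol for extraction and the labels a column kit. Here spots with an outlier mark (959) were dropped, spots of a probe were averaged, and log2 intensity minus the 75th percentile of each array was fitted in limma 3.58.1 (R 4.3.3) over all 8 arrays with 1 mean per group and 4 residual degrees of freedom. A probe was tested where 1 group or more had it well above background on each of its arrays (31912 of 56567 used), and a gene is its probe with the highest mean. Replicates are called independent biological replicates in the series design. Named genes are the 15 largest rises and falls past the threshold and above background on the 4 arrays, with the groups apart and the direction kept after quantile normalization, the 5 with the largest bound each way, list members past the threshold, and genes of PD-1, EP4, T-cell and macrophage biology, of which 1 is not reported here. The comparison, the members and the lists were chosen with earlier results of these data known. Gene names came from RefSeq by accession for 32971 probes, by symbol for 10217 and from the array file for the rest, and lists hold 776 genes, of which 697 were tested. In data simulated for this comparison on 31912 probes, 98.5% of 200 changed probes were found unadjusted (329 false) and 72.5% adjusted (9 false). The changed probes differed by 3 or 1.5 on the log2 scale. Whether these shares and false counts hold for smaller differences, such as 2-fold, or for the real arrays was not tested. Replicate numbers do not pair samples, and a slide block could not be fitted on 1 slide.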

Additional observations from a re-analysis of the deposited data

How the results depend on the processing

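The 2 arrays per group limit every value. The 1386 probes called between combination and TP-16 (1124 higher, 262 lower) became 564 (473, 91) with normexp background correction, 893 (729, 164) with probes above background on all arrays, 520 (382, 138) by the methods' t-test and 3303 (2020, 1283) at a fold of 1.5, and the lower count was 476 with no filter on dim probes. With the replicate number as a replicate block, 1358 were called (1088 higher), 1306 of them shared with the 1386, and the block moved no count of calls by over 1.5 times and changed, among named genes, only the call of 6030442E23Rik (p = 0.062) (same-numbered TP-16 and combination arrays deviated from their group means with a correlation of 0.155 over probes). After adjustment the count of 0 became 1 with quantile normalization and with the authors' log2 values, 147 with normexp, 47 with probes above background on all arrays and 215 with trended and robust moderation. For anti-PD-1 against vehicle, 1221 became 329 with normexp, 491 with probes above background on all arrays, 303 by the t-test, 2980 without the filter and 2597 at a fold of 1.5. Departures from additivity after adjustment went from 0 to 14 with quantile normalization and with the authors' values. By the t-test 4 collagens, 2 fibroblast markers and 1 checkpoint gene were called.

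Leaving out each array in turn gave 745 to 2027 probes in all (589 to 1653 higher, 156 to 473 lower), 0 to 7 after adjustment, 968 to 2292 for anti-PD-1 against vehicle, and 0 to 13 departures. Called genes ranged from 6 to 10 for cytotoxic effectors, 9 to 12 for collagens, 5 to 9 for fibroblast markers, 0 to 9 for checkpoints and 11 to 25 for structured noncoding RNAs. Of 51 named genes called, 20 lost their call by the t-test, 14 with normexp, 14 without combination replicate 2 and 11 without TP-16 replicate 2, and no direction turned. Among the uncalled, Lamp1 turned to 0.305 with quantile normalization, 0.307 with the authors' values and 0.009 with normexp, and ranged from -0.127 to 0.042 with 1 array left out. Mki67 turned to 0.029 with quantile normalization and 0.030 with the authors' values and ranged from -0.221 to 0.057, and Mrc1 ranged from -0.038 to 0.377 (-0.025 without TP-16 replicate 1). The causes were not tested.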
